A study of Mus musculus with 30 samples.

Results

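The subcortical maternal complex is an assembly of proteins that mouse oocytes build beneath the cell membrane and pass on to the embryo. Its transcripts were followed here in mouse embryos at the 8-cell stage whose Yy1 had been knocked down. YY1 is a zinc finger protein that binds DNA and can activate or repress genes. The 8 genes examined were chosen by symbol from the deposited table of 49585 rows, and each stands on 1 row of it: Nlrp5, Ooep, Tle6, Khdc3, Padi6, Nlrp4f, Nlrp14 and Zbed3. RNA was sequenced from 2 libraries of embryos that received the Yy1 knockdown the labels number 1, and from 2 libraries of embryos with a control knockdown. All 4 libraries are labelled as 8-cell embryos of BDF1 x BDF1 mice, and the labels do not give the number of embryos per library. The series also holds 26 samples of MNase-seq and CUT&RUN, not analysed here, and its title concerns nucleosome remodeling mediated by YY1. Values are FPKM, fragments per kilobase of gene, scaled to the library's fragment total. Comparing levels between genes relies on an annotation and a handling of shared reads that no source used here gives.

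NLRP5 (MATER), OOEP (FLOPED) and TLE6 form the core of the complex in mice, and KHDC3 (FILIA) joins it. PADI6, NLRP4F and ZBED3 have been found with it. Mouse embryos from mothers that lack NLRP5, OOEP, TLE6 or PADI6 stop dividing in early cleavage. The proteins are also tied to the cytoplasmic lattices, the fibrous protein stores of the oocyte. The genes are transcribed while the oocyte grows, most of their mRNA is cleared after fertilization, and the proteins last much longer. FPKM do not tell transcripts left over from the oocyte from any made by the embryo.

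Promoter windows of 3 of the genes are printed, chosen by the values below, and were not compared with the levels. Khdc3 was lower after Yy1 knockdown in both libraries, and Nlrp5 was higher in both. Zbed3 had the largest gap between the Yy1 knockdown libraries on log2(FPKM + 1). Each window holds the 250 bases before a transcript start, 5′ to 3′, from RefSeq on GRCm38.p6, the assembly behind mm10. Capitals mark the E-box CANNTG, the motif bound by basic helix-loop-helix factors such as FIGLA, which drives oocyte genes. The Khdc3 window, chr9:73102148-73102397 on the plus strand, has 5 E-boxes, of which a pair overlaps, and lies before a transcript start 1017 bases inside the annotated gene. The Nlrp5 window, chr7:23385639-23385888 on the plus strand, has 2, and the Zbed3 window, chr13:95323355-95323604 on the plus strand, has 3.
Khdc3: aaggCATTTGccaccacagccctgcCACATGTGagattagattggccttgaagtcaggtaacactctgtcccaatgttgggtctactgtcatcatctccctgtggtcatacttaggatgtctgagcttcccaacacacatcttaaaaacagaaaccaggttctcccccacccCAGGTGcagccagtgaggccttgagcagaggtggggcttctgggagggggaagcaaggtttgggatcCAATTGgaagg
Nlrp5: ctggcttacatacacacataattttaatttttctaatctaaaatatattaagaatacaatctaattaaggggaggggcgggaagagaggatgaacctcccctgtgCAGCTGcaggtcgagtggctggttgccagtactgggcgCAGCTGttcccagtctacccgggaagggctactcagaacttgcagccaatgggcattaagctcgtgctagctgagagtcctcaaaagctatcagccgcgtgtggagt
Zbed3: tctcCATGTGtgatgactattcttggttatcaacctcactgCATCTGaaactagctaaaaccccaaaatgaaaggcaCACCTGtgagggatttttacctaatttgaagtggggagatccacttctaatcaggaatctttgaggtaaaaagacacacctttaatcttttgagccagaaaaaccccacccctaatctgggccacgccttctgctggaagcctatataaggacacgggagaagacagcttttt

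The promoter table held 11 windows for 7 of the 8 genes, and Nlrp14 had no entry. An E-box stood in 11 of the 11 windows, and in 66.2% of all 32851 windows of that length. The letters AANATGGC, a form of the YY1 motif, were searched on both strands and stood in 0 of the 11 windows, against 3.91% of all windows. TAATTG, a homeobox motif of the kind bound by NOBOX, stood in 1 of the 11, the window of Ooep, against 7.17% of all windows. A match describes letters only, and a missing match says only that these letters are not in this window.

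Yy1 itself measured 5.89 and 7.98 FPKM after its knockdown, against 77.7 and 71.2 FPKM in control, as the labels imply. The log2 fold change on log2(FPKM + 1) was -3.26 (limma adjusted p = 0.0556). Fragment totals recovered from the steps between values were 34.1 M and 29.3 M (megafragments) in the Yy1 knockdown libraries, against 34.4 M and 31.4 M in the control libraries. Of 10 markers of the 8-cell embryo, 9 passed a filter of a mean of 1 FPKM, with Pou5f1, the gene of OCT4, at 178 and 190 FPKM after Yy1 knockdown and at 195 and 214 FPKM in control. Sox2 did not pass the filter. Zfp42, the gene of REX1, stood apart in that list, with 5.43 and 3.99 FPKM after Yy1 knockdown and 30.7 and 30.2 FPKM in control (limma adjusted p = 0.0928). Markers of other cells were mixed. Fshr of follicle cells, Prm1 of sperm and the beta globin genes Hbb-bs and Hbb-bt were at 0 in all 4 libraries. The alpha globin gene Hba-a1 was at 0.434 and 0.757 FPKM after Yy1 knockdown and at 0.608 and 0.118 FPKM in control, with Hba-a2 close to it. Prm2, a sperm protamine gene, was at 0 and 1.49 FPKM after Yy1 knockdown and at 0.0975 and 0.784 FPKM in control.

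All 8 genes passed the filter. Their levels spanned more than an order of magnitude, and 6 of the 8 held the same place in the order of means in both groups, with Zbed3 at the top and Ooep at the bottom. Mean levels after Yy1 knockdown were 46.7 FPKM for Zbed3, 17.1 for Padi6, 9.36 for Khdc3, 7.84 for Nlrp14, 7.08 for Nlrp4f, 6.39 for Nlrp5, 4.52 for Tle6 and 1.15 FPKM for Ooep. In control the means were 27.3 FPKM for Zbed3, 15.6 for Khdc3, 15.4 for Padi6, 6.54 for Nlrp14, 6.42 for Nlrp4f, 5.09 for Nlrp5, 3.85 for Tle6 and 1.17 FPKM for Ooep. Neighbours whose ranges overlapped were Nlrp4f and Nlrp5 after Yy1 knockdown, and Khdc3 with Padi6 and Nlrp14 with Nlrp4f in control. Among all 12120 genes that passed the filter, Zbed3 lay at percentile 87.2 after Yy1 knockdown and 80.3 in control, Tle6 at percentiles 42.0 and 38.4, and Ooep at percentiles 5.03 and 7.03.

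**Figure D1:**
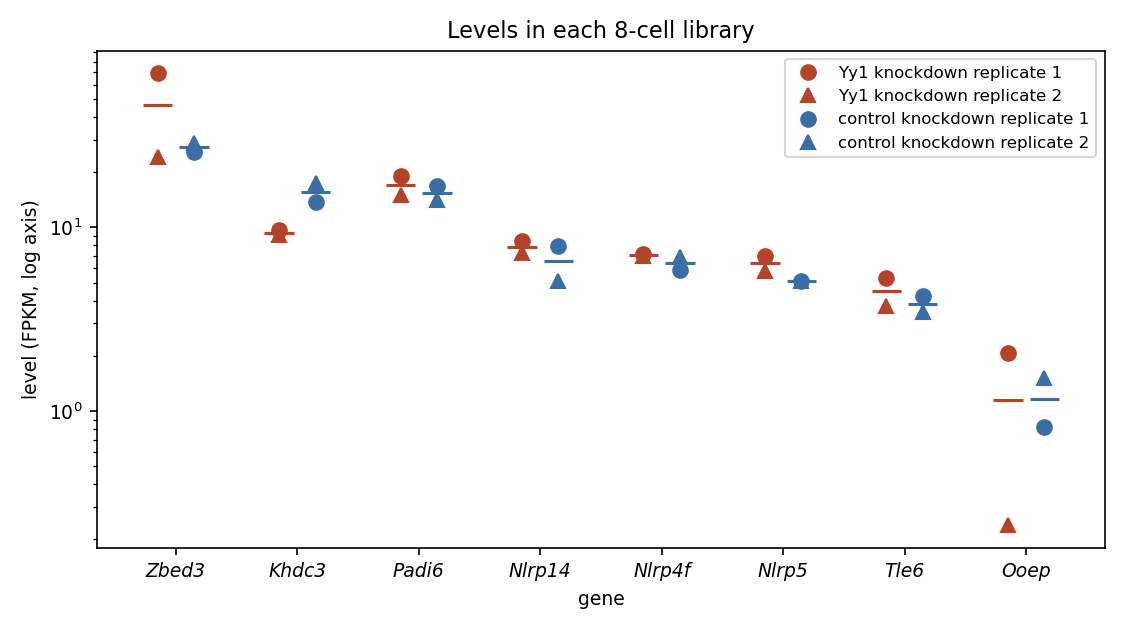
Level of each gene in FPKM, on a log axis, in the 2 Yy1 knockdown libraries (left, red) and the 2 control libraries (right, blue) of 8-cell embryos; circles are replicate 1, triangles replicate 2, and bars the group means. Khdc3 lies below both controls, and Zbed3 and Ooep spread most between the Yy1 knockdown libraries.

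The difference between groups was tested for every gene with limma on log2(FPKM + 1), on which scale the fold changes below are given. None of the 8 genes passed an adjusted p of 0.05, and 0 of all 12120 genes did (0.0%), Yy1 included. At an unadjusted p under 0.05 stood 1 of the 8, lower, against 8.9% of all genes (1079), of which 4.22% were higher and 4.69% lower. With other settings, voom called 13 genes and a fit of protein-coding genes alone called 14, none of them among the 8. The groups did not overlap in 3 of the 8 genes, with Yy1 knockdown higher in 2 and lower in 1, and of all genes 21.8% and 18.9% were so placed. The share without overlap, 37.5% of the 8, is near the 40.7% of all genes.

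Of the core of the complex, Nlrp5, on chromosome 7 from 23385889 to 23441923, encodes a leucine-rich repeat protein of the NLRP family. It had 7.01 and 5.77 FPKM in the Yy1 knockdown libraries, against 5.08 and 5.1 FPKM in control, so the groups did not overlap and Yy1 knockdown was the higher. The fold change was 0.27 ± 0.19 (standard error, limma adjusted p = 0.702). The 95% interval, not adjusted for the number of genes, ran from -0.21 to 0.75, and the fold change was 0.15 without Yy1 knockdown replicate 1. Between 777 and 1158 fragments stood behind each value. Nlrp5-ps, a transcribed pseudogene of Nlrp5, had 7.04 and 6.67 FPKM after Yy1 knockdown, against 6.66 and 5.52 FPKM in control. Its groups did not overlap either, but the nearest libraries, at 6.67 and 6.66 FPKM, were almost level. The sources do not say how reads shared by such copies were counted.

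Tle6 encodes a Groucho-family protein that binds NLRP5 and OOEP. Its gene lies on chromosome 10 from 81590904 to 81601185 and overlaps Tle2, which was at 0.0896 FPKM or less in every library. Tle6 stood at 5.3 and 3.74 FPKM after Yy1 knockdown, against 4.23 and 3.47 FPKM in control. The groups overlapped, with a fold change of 0.18 ± 0.24 (standard error) and a limma adjusted p of 0.853.

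Ooep encodes an oocyte protein with a KH domain, an RNA-binding fold. It lies on chromosome 9 from 78376903 to 78378588 and was the lowest of the 8 genes. It had 2.06 and 0.239 FPKM after Yy1 knockdown, against 0.815 and 1.52 FPKM in control. The highest and the lowest of the 4 values were thus both from Yy1 knockdown libraries. These values rest on 150 and 15 fragments in the Yy1 knockdown libraries and on 60 and 102 in control. Exact Poisson 95% intervals, which cover counting error only, were 1.74 to 2.42 and 0.134 to 0.395 FPKM for the Yy1 knockdown libraries, and 0.622 to 1.05 and 1.24 to 1.84 FPKM for control, so no pair of libraries in a group overlapped in counting error. The group difference was -0.14 ± 0.50 (standard error), limma adjusted p = 0.953, with an interval from -1.38 to 1.11. It moved with the pseudocount, to -0.51 with 0.1 and -0.02 with 5, and was -0.56 with voom. The length that the steps give for Ooep, 2138 bases, exceeds the 1686 bases the gene spans in RefSeq, and the gene model behind the deposited values was not used here.

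Khdc3 encodes FILIA, a KH domain protein of the complex, and lies on chromosome 9 from 73101381 to 73106631. It was the 1 gene of the 8 that was lower by both its values and its unadjusted p. It measured 9.65 and 9.07 FPKM after Yy1 knockdown, against 13.7 and 17.5 FPKM in control. Both knockdown libraries lay below both controls, and the means were 9.36 ± 0.407 FPKM after Yy1 knockdown and 15.6 ± 2.66 FPKM in control (SD, n = 2 each), 1.67-fold higher in control. The fold change was -0.67 ± 0.18 (standard error), with an interval from -1.14 to -0.21 that is not adjusted for the number of genes. The unadjusted limma p was 0.0125 and the limma adjusted p over all genes 0.502, so the difference did not pass. Between 545 and 1127 fragments stood behind each value. In bulk embryos, fewer cells with the transcript and less of it per cell cannot be told apart, here and for the other genes.

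Padi6 encodes a peptidylarginine deiminase family member needed for the cytoplasmic lattices, and lies on chromosome 4 from 140727355 to 140742643. It had 19.0 and 15.1 FPKM after Yy1 knockdown, against 16.8 and 14.1 FPKM in control, and the groups overlapped. Its fold change was 0.13 ± 0.19 (standard error, limma adjusted p = 0.859), with an interval from -0.34 to 0.61. The neighbouring relative Padi4, 2864 bases away, was at 0.366 FPKM or less in every library.

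Of the other NLRP genes among the 8, Nlrp4f, on chromosome 13 from 65177111 to 65205716, is a mouse oocyte NLRP gene whose product associates with the complex. It stood at 7.16 and 7.0 FPKM after Yy1 knockdown, against 5.88 and 6.95 FPKM in control. The groups did not overlap, but the nearest libraries of the 2 groups were almost level, and the fold change was 0.13 ± 0.18 (standard error, limma adjusted p = 0.861), 0.02 without control replicate 1 and 0.23 without control replicate 2. Nlrp14, on chromosome 7 from 107113455 to 107198103, encodes an oocyte and testis NLRP protein that binds UHRF1, a cofactor of maintenance DNA methylation. It had 8.43 and 7.25 FPKM after Yy1 knockdown and 7.93 and 5.14 FPKM in control, with overlap, a fold change of 0.25 ± 0.24 (standard error) and a limma adjusted p of 0.783. The olfactory receptor genes Olfr715 and Olfr716 lie within the span of Nlrp14 and were listed at 0 in all 4 libraries.

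Zbed3 encodes a BED zinc finger protein that binds Axin in Wnt signalling and is needed for the placement of organelles in mouse oocytes and zygotes. Its gene lies on chromosome 13 from 95323605 to 95337842 and was the highest of the 8. It had 69.1 and 24.2 FPKM in the Yy1 knockdown libraries, against 25.8 and 28.7 FPKM in control. Replicate 1 of Yy1 knockdown was thus far above the other 3 libraries, and replicate 2 was the lowest of all. The means were 46.7 ± 31.7 FPKM after Yy1 knockdown and 27.3 ± 2.07 FPKM in control (SD, n = 2 each), and the fold change was 0.58 ± 0.47 (standard error, limma adjusted p = 0.737), with an interval from -0.59 to 1.74. The 4459 and 1344 fragments behind the Yy1 knockdown values put the gap beyond counting error. Snora47, a small nucleolar RNA gene within the span of Zbed3, was at 64.9 and 45.3 FPKM after Yy1 knockdown and at 43.6 and 54.5 FPKM in control, so it too was highest in replicate 1 of Yy1 knockdown, with a smaller spread. The cause of the gap was not tested.

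**Figure D2:**
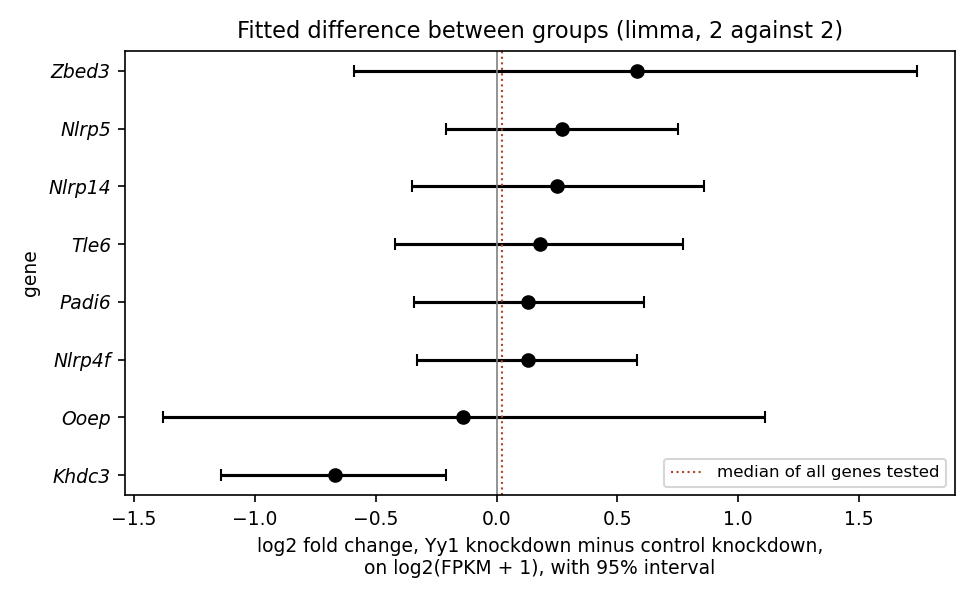
Fitted log2 fold change of each gene, Yy1 knockdown minus control knockdown, on log2(FPKM + 1); points are limma estimates from 2 against 2 libraries, bars 95% intervals not adjusted for the number of genes, and the dotted line the median of all genes tested. The interval of Khdc3, from -1.14 to -0.21, does not reach 0, and those of the other 7 genes do.

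The median fold change of the 8 genes was 0.15, from -0.67 for Khdc3 to 0.58 for Zbed3, beside a median of 0.02 over all genes tested, and 6 of the 8 were above 0 against 53.2% of all genes. This median moved with each library: leaving out Yy1 knockdown replicate 1 gave -0.027, leaving out Yy1 knockdown replicate 2 gave 0.365, and leaving out control replicate 1 or 2 gave 0.262 or 0.082. The signs of Zbed3, Tle6 and Padi6 turned below 0, at -0.16, -0.03 and -0.02, when Yy1 knockdown replicate 1 was left out. Nlrp14 turned to -0.02 without control replicate 2, and Ooep turned to 0.52 without Yy1 knockdown replicate 2 and to 0.10 without control replicate 2. Replicate 1 of Yy1 knockdown was above replicate 2 in 8 of the 8 genes, against 55.1% of all genes. In control, replicate 1 was above replicate 2 in 3 of the 8, against 43.6% of all genes. The gap between the Yy1 knockdown libraries on log2(FPKM + 1) was 1.47 for Zbed3, 1.3 for Ooep and 0.41 for Tle6, and 0.03 to 0.31 for the other 5. For all genes the median of this gap was 0.04 and the 95th percentile 0.8, so the gap of Nlrp4f, 0.03, lay below that median. Median-ratio size factors, not applied to these values, were 1.05 for Yy1 knockdown replicate 1 and 1.0 for replicate 2. Zfp57 and Tcl1, maternal effect genes outside the complex that were picked after their values were seen, were also highest in replicate 1 of Yy1 knockdown. In their list of 23, replicate 1 of Yy1 knockdown was above replicate 2 in 13, near the share of all genes. Zfp57 stood at 21.0 and 9.92 FPKM after Yy1 knockdown, against 9.14 and 8.49 FPKM in control, and Tcl1 at 10.2 and 2.42 FPKM, against 3.1 and 2.26 FPKM.

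**Figure D3:**
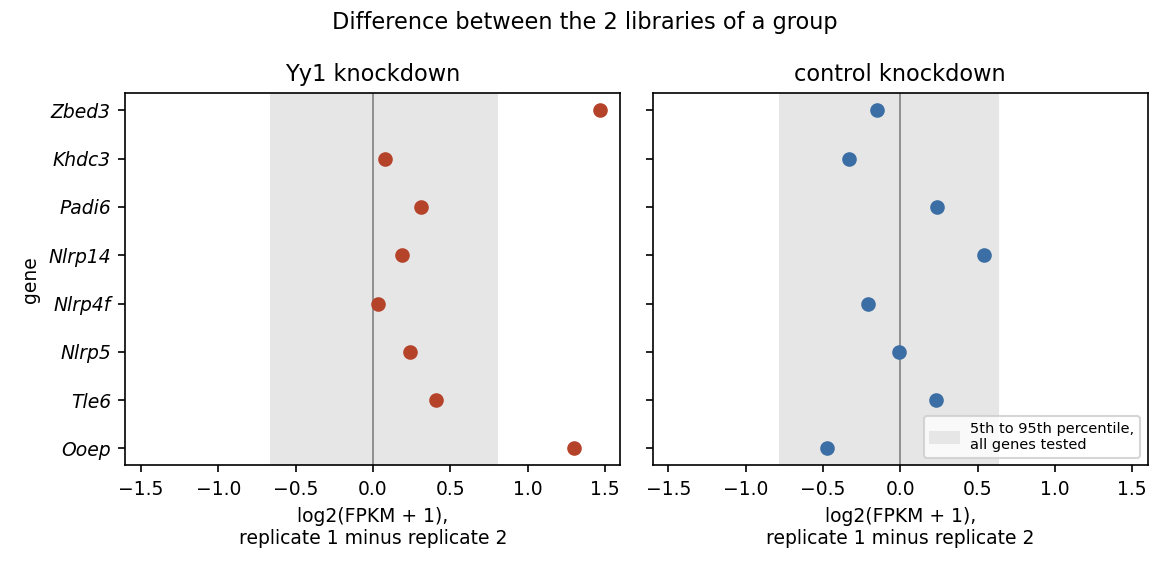
Gap between the 2 libraries of a group, replicate 1 minus replicate 2 on log2(FPKM + 1), for Yy1 knockdown (left) and control knockdown (right); the grey band spans the 5th to 95th percentile of all genes tested. The 8 genes lie at or right of 0 after Yy1 knockdown, with Zbed3 at 1.47 and Ooep at 1.3 beyond the band, and on both sides of 0 in control.

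Other markers moved in different ways between these libraries. Of 16 follicle cell markers, 1 passed the filter, Amhr2, and 5 were at 0 in all 4 libraries. Their levels summed to 9.36 and 8.89 FPKM after Yy1 knockdown and to 6.31 and 5.74 FPKM in control, of which Amhr2 held 7.8 and 7.3 FPKM, against 5.35 and 4.74 FPKM. The 9 sperm markers, of which 6 were at 0, summed to 2.8 and 6.46 FPKM after Yy1 knockdown and to 2.93 and 5.36 FPKM in control. Odf2, the 1 over the filter, held 2.67 and 4.9 FPKM of these, against 2.8 and 4.13 FPKM in control. The 8 blood cell markers summed to 3.59 and 4.79 FPKM after Yy1 knockdown and to 2.74 and 1.75 FPKM in control. Cd68, a macrophage gene, was the 1 over the filter, at 2.33 and 3.04 FPKM against 1.43 and 1.14 FPKM. Amhr2 and Cd68 were higher after Yy1 knockdown without overlap, and for Odf2 the groups overlapped. Unadjusted limma p was 0.0362 for Amhr2 and 0.0384 for Cd68 (limma adjusted p = 0.541 and 0.546). Among all genes, 4.22% were higher with an unadjusted p under 0.05, and 21.8% were higher without overlap. In both groups of libraries the follicle, sperm and blood marker sums stayed below 10 FPKM, as did the mean levels of most of the 8 genes examined. The part of these markers in the results was not tested.

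Among the wider NLRP family, 18 genes besides the 8 were listed, and 8 of them passed the filter. None passed with limma over all genes (smallest adjusted p = 0.835), and 0 had an unadjusted p under 0.05, against 8.9% of all genes. With 8 of these genes tested, a count of 0 is near that share. Of these other NLRP genes that were tested, 2 were above 0 and 6 below, against 53.2% of all genes above 0. Their median fold change was -0.10, with a range from -0.17 to 0.15. The NLRP genes with the smallest p were Nlrp5-ps, at 0.15, Nlrp9b, at -0.17, with 1.29 and 1.06 FPKM after Yy1 knockdown and 1.61 and 1.27 FPKM in control, and Nlrp12, at -0.12, with 2.82 and 2.83 FPKM against 3.18 and 3.12 FPKM. The 10 below the filter included Nlrp2, a maternal effect gene, at 1.11 and 0.797 FPKM against 0.687 and 0.681 FPKM. The Nlrp4 genes, Nlrp4f among them, are close copies within their group, as are the Nlrp9 genes within theirs. The division of reads within each group is therefore uncertain.

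Of 16 family relatives of the genes without an NLRP domain, 10 passed the filter, 2 above 0 and 8 below, with a median of -0.08. None passed with limma (smallest adjusted p = 0.604), and 0 had an unadjusted p under 0.05. Among all genes 8.9% had such a p, which is near 0 of 10, and 53.2% were above 0. Dppa5a, a KH domain gene next to Ooep on chromosome 9, had 238 and 223 FPKM after Yy1 knockdown and 289 and 268 FPKM in control, a fold change of -0.27 (limma adjusted p = 0.604). It lies 8703 bases from Ooep and was far above it in every library. Zbed4 averaged 24.8 FPKM after Yy1 knockdown and 30.5 FPKM in control (-0.29), and Zbed5 had 5.97 and 8.47 FPKM against 4.95 and 6.78 FPKM.

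Of 12 reported partners of the complex, 10 passed the filter, 7 above 0 and 3 below, with a median of 0.11. None passed with limma (smallest adjusted p = 0.624), and 0 had an unadjusted p under 0.05. Among all genes 8.9% had such a p, which is near 0 of 10, and 53.2% were above 0. Fbxw28, an F-box gene, had 7.88 and 4.88 FPKM after Yy1 knockdown and 4.75 and 2.95 FPKM in control, a fold change of 0.60 ± 0.30 (standard error, limma adjusted p = 0.624). It was 0.30 without Yy1 knockdown replicate 1, 0.90 without Yy1 knockdown replicate 2 and 0.33 without control replicate 2. Uhrf1, the partner of NLRP14, had 6.79 and 8.45 FPKM against 6.49 and 5.69 FPKM, without overlap (0.28, limma adjusted p = 0.704, and 0.14 without Yy1 knockdown replicate 2). Axin1, the scaffold that ZBED3 binds, had 17.4 and 16.3 FPKM after Yy1 knockdown and 19.1 FPKM in both control libraries (-0.17, limma adjusted p = 0.756).

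Of 23 maternal effect genes outside the complex, 23 passed the filter, 14 above 0 and 9 below, with a median of 0.12. None passed with limma (smallest adjusted p = 0.462), and 4 had an unadjusted limma p under 0.05, all lower. Of all genes, 8.9% had such a p in either direction, 4.69% were lower with it, and 53.2% were above 0. The groups did not overlap in 60.9% of them, with Yy1 knockdown higher in 8 and lower in 6, against 40.7% of all genes. Rnf114, a ubiquitin ligase gene, had 7.88 and 7.96 FPKM after Yy1 knockdown and 13.8 and 13.9 FPKM in control, a fold change of -0.74 ± 0.16 (standard error, limma adjusted p = 0.462). Hsf1, the heat shock transcription factor gene, had 4.14 and 5.78 FPKM against 7.74 and 9.39 FPKM (-0.69, limma adjusted p = 0.532). Ago2, the slicing Argonaute gene, had 39.0 and 32.5 FPKM against 51.4 and 48.1 FPKM (-0.47, limma adjusted p = 0.532).

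**Figure D4:**
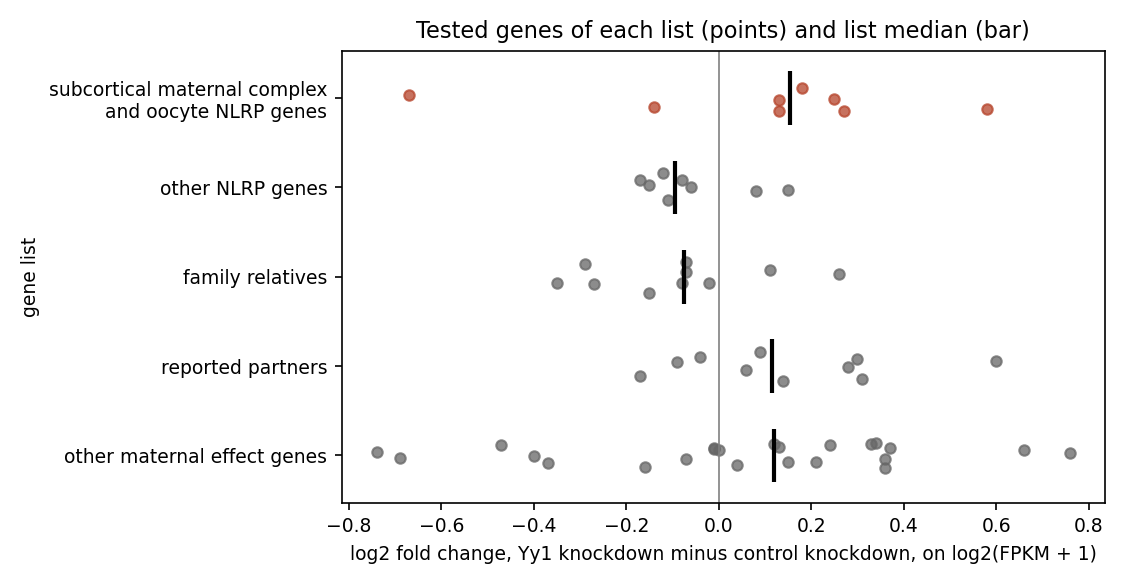
Log2 fold change, Yy1 knockdown minus control knockdown on log2(FPKM + 1), of every tested gene of 5 lists (points) with the list median (bars); the 8 genes of the complex and the oocyte NLRP set are in red. Points of every list stand on both sides of 0, and medians run from -0.10 for the other NLRP genes to 0.15 for the red points.

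The median centred profile of the 8 genes over the 4 libraries was 0.24 and -0.104 in the Yy1 knockdown libraries and -0.057 and -0.16 in control. The protein-coding genes nearest to it by Euclidean distance were Ubtfl1, at 0.0459, Mob1b, Tiam1, Ogfod1 and Lin7c, at 0.0549. With 4 libraries such likeness is common, and 508 protein-coding genes lay within a distance of 0.2.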

How the data were processed

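Embryo RNA was extracted and made into libraries with TAKARA's stranded SMART-Seq chemistry, per the labels' protocols. The authors deposited FPKM per gene. Per the submitters' processing notes, the tools for all assays were featureCounts, bedtools, HISAT2 2.2.1, Bowtie2 2.4.3, Trim Galore 0.6.7, R 4.0.3 and SAMtools 1.4.1, on mm10, with no role given. No source used here gives the annotation release, the strand setting or the handling of shared reads. Levels of genes with close copies are therefore uncertain. Gapdh was listed at 0.148 to 0.33 FPKM, and the cause was not tested. The spacing of low values gave each library's fragment total, and with it whole counts, within 0.02 fragments, for 12117 of the 12120 tested genes. A count can be understated by a common factor, and depth covers counting error only.

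Tests took genes whose mean over the 4 libraries reached 1 FPKM, and were made on log2(FPKM + 1), which understates changes of low genes, with limma 3.58.1 in R 4.3.3 (group alone, mean-variance trend), with Benjamini-Hochberg adjustment over all genes and a threshold of 0.05. The fit was tested on simulated data. With 2 against 2 libraries an exact permutation test cannot go below a two-sided p of 0.333, so none was used. The labels do not say whether replicates are separate collections of embryos, so p-values reflect variation among the 4 libraries, possibly technical. Replicates were not copies of 1 library: their counts gave a chi-square of 37.7 per degree of freedom in Yy1 knockdown and 49.9 in control. The 8 genes and the lists were chosen with earlier results of these data known. Beside the 8 genes, the text names Yy1, the 3 genes of smallest p in each other list, and the 5 nearest protein-coding genes; any others were picked after their values were seen. Coordinates and biotypes come from RefSeq (GRCm38.p6). Alternatives were other pseudocounts (0.1 and 5), filters, scalings, moderation, a replicate block, protein-coding genes alone, voom on recovered fragments and leaving out each library.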

Additional observations from a re-analysis of the deposited data

How the results depend on the processing

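None of the 8 genes was called under any of the 15 alternatives in which it was tested; with a filter of 5 FPKM, Ooep and Tle6 were left out and 6 of the 8 were tested. Over all genes, 0 were called with a pseudocount of 0.1, no filter, median-ratio scaling, quantile normalization, the replicate block, no trend, and without each library. It was 1 with a pseudocount of 5, 4 with a filter of 5 FPKM (6677 genes tested), 1 with robust eBayes, 14 with protein-coding genes alone and 13 with voom; the cause was not tested. Yy1 was among those called in each of these 5 settings. The replicate numbers were not taken as pairs: the deviations of same-numbered libraries correlated at 0.0994 across genes, just under the 0.1 set as a limit. That limit does not exclude pairing. Levels correlated at 0.97 for replicate 1 of both groups and 0.959 for replicate 2, and at 0.966 and 0.969 within Yy1 knockdown and control. The mixed pairs of libraries stood at 0.963 and 0.96. With the replicate block the count of called genes was 0, and 1187 genes had an unadjusted p under 0.05, against 1079 without it.

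The median fold change of the 8 genes lay between 0.105 and 0.189 under the alternatives that keep all libraries and all 8 genes, was 0.193 over the 6 left by a filter of 5 FPKM, and lay between -0.027 and 0.365 when a library was left out; such fits leave 1 library in a group, assumed to vary like the other group. In leave-one-out fits Zbed3 ran from -0.16 to 1.31, Tle6 from -0.03 to 0.38 and Padi6 from -0.02 to 0.29, each below 0 without Yy1 knockdown replicate 1. Nlrp14 ran from -0.02 to 0.52, below 0 without control replicate 2. Ooep ran from -0.79 to 0.52, above 0 without Yy1 knockdown replicate 2 and, at 0.10, without control replicate 2. Khdc3 ran from -0.84 to -0.51, Nlrp5 from 0.15 to 0.39, Nlrp4f from 0.02 to 0.23 and Zbed5 from 0.04 to 0.48. For Khdc3, the adjusted p lay between 0.223 and 0.84 over the 15 alternatives. Mob1b ran from -0.01 to 0.38, Ogfod1 from -0.03 to 0.34 and Lin7c from -0.03 to 0.34, each below 0 without Yy1 knockdown replicate 1. Depth limits Ooep most, with 15 fragments in 1 library.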
